A study of Mus musculus with 6 samples.

Results

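Nuclear receptor genes and the genes of their coregulators were followed in epididymal white adipose tissue (WAT) of mice after timed sleep restriction (TSR). The list held 36 genes by name, 29 receptors and 7 coregulators, and every probe set annotated to exactly 1 of these symbols was taken. Of the 36 genes, 33 had a probe set on the array, and together they had 60 of the 22690 probe sets. The array held 12393 genes by symbol. The oxysterol receptor gene Nr1h2, the mineralocorticoid receptor gene Nr3c2 and the corepressor gene Ncor1 had no such probe set and were not analysed here.

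RNA of 3 TSR and 3 control samples from C57BL/6 mice was hybridised to Affymetrix mouse arrays, with 1 array per sample. TSR mice were kept awake by gentle handling for 6 h per day over 5 days, in the first hours of the light phase, and epididymal WAT was taken on the last of these days at ZT18 (ZT, Zeitgeber time, counts hours from lights on). Control mice of the same strain gave WAT at ZT18, and the methods describe the animals as wild-type males of 9 to 11 weeks. The labels name tissue frozen in liquid nitrogen and Trizol, the methods RNAlater and a lipid tissue kit, and neither says whether an array held 1 animal or a pool. The spread behind each p-value is therefore that among these arrays, which may be technical.

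Nuclear receptors are transcription factors that bind short DNA sites, and many of them are switched by small fat-soluble ligands such as fatty acids, retinoids, oxysterols, bile acids, thyroid hormone and steroids. Many bind DNA as a dimer with a retinoid X receptor (RXR). Coactivators carry histone acetyltransferases or the Mediator complex to a receptor, whereas corepressors carry histone deacetylases. In WAT, PPARγ together with RXR holds the adipocyte programme, and liver X receptors (LXR) and thyroid hormone receptors act on genes of lipid synthesis.

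The deposited values were MAS5 signals, intensities on a linear scale that the authors had scaled to 1 target per array. Median signals lay between 127 and 141 on the 6 arrays, and across the tested probe sets log2 signals correlated with r of 0.991 to 0.993 within a group and 0.962 to 0.965 across groups. The 5′ probe sets of the beta-actin control RNA lay 0.67 below the 3′ ones on the log2 scale in TSR and 1.22 below them in control. For the Gapdh control RNA the 5′ signal lay 0.13 above the 3′ signal in TSR and 0.52 below it in control. Both differences go with the groups, and their part in the values below was not tested. Of 26 measured hepatocyte markers, 24 were above every control array in every TSR array, with a summed signal over the list of 34524 to 39713 in TSR and 27061 to 32964 in control. The hepatocyte marker albumin (Alb) had a signal of 3205 ± 143 in TSR and 129 ± 31.6 in control (SD, n = 3 each). Of 11 macrophage markers, 10 were significantly lower in TSR, among them Csf1r (log2 fold change -0.46). Of 12 adipocyte markers, 4 were higher and 7 lower, with Adipoq at -0.46, and all 12 passed the filter on low signals.

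A probe set entered the test if its mean log2 signal over the 6 arrays reached 5.45 (a signal of 43.8), and 30 probe sets of 19 receptor and coregulator genes did. The limma test across all 14707 such probe sets, with Benjamini-Hochberg adjustment and a threshold of 0.05, called 11 of the 30 higher and 8 lower in TSR, and 11 did not pass. Among all tested probe sets 46.6% were called, 25.6% higher and 21.0% lower in TSR, so the share of members called (19 of 30) has to be read against a large background. TSR and control signals did not overlap for 19 of the 30, against 56.6% of all tested probe sets. In bulk tissue, fewer cells of a type and less RNA per cell cannot be told apart, and this holds for every value below.

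Within the list of 36 genes, the receptor genes leaned upwards and the coregulator genes downwards. Of 20 receptor probe sets, 10 were significantly higher, 3 lower and 7 did not pass, with a median log2 fold change of 0.40. Among the 10, the Nr2c1 probe set 1449157_at, reached the filter through its TSR signals alone, and without it 9 of 19 were higher and 3 lower (where 46.5% of the 14256 probe sets above the filter in both groups were called). The 3 lower became 1 in the methods' t-test on linear or log2 signals, without a filter, without TSR replicate 3 and without control replicate 2. Of 10 coregulator probe sets, 1 was higher, 5 were lower and 4 did not pass, with a median of -0.17. The median over all tested probe sets was 0.04. Taking the brightest probe set for each gene, 7 of 14 receptor genes were higher and 3 lower, and 0 of 5 coregulator genes were higher and 4 lower, where 47.0% of all 8619 genes were called, 24.0% higher and 23.0% lower. Of the coregulator genes counted as lower, Ncoa4 and Med1 had probe sets that disagree, and with probe sets averaged by gene 2 of 5 were lower. No test was run on this contrast of classes.

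Among the listed receptors, the brightest signal to rise was that of Rxra. It encodes RXRα, the common dimer partner of PPARs, LXRs, thyroid hormone and retinoic acid receptors. Probe set 1454773_at had signals of 1266, 1156 and 1264 in TSR and 826, 787 and 740 in control. Every TSR array lay above every control array, and the difference was 0.65 ± 0.06 on the log2 scale (SE, limma adjusted p = 4.7e-05), a 1.57-fold ratio of means. A dimmer probe set of the gene, 1425762_a_at, had 227, 209 and 223 in TSR and 163, 156 and 181 in control, and was also significantly higher (log2 fold change 0.40 ± 0.09, adjusted p = 0.0077).

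Rxrg, the RXR with the narrowest tissue range, known from skeletal muscle and brain, had signals of 287, 285 and 306 in TSR and 198, 220 and 199 in control. These groups were also well apart (0.51 ± 0.08, adjusted p = 0.0011). Rxrb, the broadly expressed member of the RXRs, had 679, 647 and 576 in TSR and 616, 565 and 320 in control. Here control replicate 3 was far below the other control arrays, the groups overlapped and the difference of 0.40 ± 0.21 did not pass (adjusted p = 0.16). RXR transcripts thus rose for Rxra and Rxrg, while for Rxrb the 95% interval ran from -0.08 to 0.87.

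Rxra and Rxrg each had a second RefSeq start whose upstream sequence holds the core hexamer bound by many nuclear receptors, AGGTCA, and the last 100 bases before these starts are shown with the hexamer in capitals (TGACCT is the same hexamer on the other strand). The Rxra stretch is chr2:27709192-27709291 and the Rxrg stretch chr1:167618165-167618264, both on the plus strand of GRCm38.p6.
Rxra: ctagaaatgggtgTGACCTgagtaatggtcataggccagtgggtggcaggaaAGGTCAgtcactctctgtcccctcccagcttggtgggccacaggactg
Rxrg: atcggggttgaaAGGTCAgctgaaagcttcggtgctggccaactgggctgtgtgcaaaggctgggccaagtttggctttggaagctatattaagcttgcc
The Rxra hexamers begin 87 and 48 bases before the start and the Rxrg hexamer 88 bases before it. The arrays do not tell which start was used.

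RefSeq promoters, from 250 bases before to 50 bases after each start, were found for 33 of the 36 genes (51 promoters). AGGTCA on either strand was in 9 of the 51, those of Ncoa4, Nr1h4, Nr5a2, Nr6a1, Rara, Rarg, Rxra, Rxrg and Thrb, and in 16.3% of all 32851 promoters. The E-box CACGTG, a site of the clock transcription factors, was in 5 of the 51 and in 7.15% of all. The D-box TTATGNAA, a site of PAR bZIP factors of clock output, was in 0 of the 51 and in 3.38% of all. AGGTCA followed by a second AGGTCA on the same strand after any 1 base or any 4 bases, forms bound by PPAR-RXR and by LXR-RXR or thyroid receptor-RXR dimers, were in 0 of the 51 and in 0.0396% and 0.0152% of all. The GC box GGGCGG was in 24 of the 51 and in 35.7% of all. A match of letters is no evidence of binding, and hexamers inside the repeats were counted under both.

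Of the retinoic acid receptors, which bind all-trans retinoic acid, only Rarg passed the filter. Its probe set 1419415_a_at had 269, 275 and 267 in TSR and 231, 169 and 223 in control. The TSR arrays lay just above the control arrays (0.40 ± 0.12, adjusted p = 0.025), but the call was lost without any 1 of the TSR arrays (up to an adjusted p of 0.066), in the methods' t-test (adjusted p = 0.077 on linear signals) and after quantile, centring or cyclic loess normalisation (0.062 in the last). A second Rarg probe set was below the filter and overlapped between groups, at 22.5, 26.3 and 43.2 in TSR and 16.7, 36.9 and 37.4 in control.

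Thra, which encodes thyroid hormone receptor α, was significantly higher by both of its probe sets. Probe set 1454675_at had 676, 651 and 668 in TSR and 398, 426 and 472 in control (0.63 ± 0.07, adjusted p = 1.5e-04). Probe set 1426997_at had 365, 354 and 385 in TSR and 264, 289 and 280 in control (0.41 ± 0.07, adjusted p = 0.0018). Neither pair of groups overlapped. Thrb, the β receptor, was below the filter with 37.3, 28.9 and 44.0 in TSR and 24.7, 32.0 and 29.1 in control, and its groups overlapped.

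Nr1h3 encodes LXRα, a receptor for oxysterols that acts on cholesterol efflux and fatty acid synthesis genes and is known from adipocytes, liver and macrophages. Its signals were 601, 683 and 627 in TSR and 342, 427 and 372 in control. All TSR arrays were well above all control arrays, with a log2 fold change of 0.75 ± 0.09 (adjusted p = 2.0e-04) and a 1.67-fold ratio of means. The macrophage markers moved the other way, with 11 of 11 below every control array in every TSR array and a summed signal of 18053 to 18363 in TSR and 26765 to 27664 in control. The hepatocyte markers moved the same way as Nr1h3, with 24 of 26 above every control array and the summed signals given above. The part of either cell type in the Nr1h3 value was not tested.

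Esrra, the oestrogen-related receptor α that acts with PGC-1 coactivators on mitochondrial genes, had 835, 638 and 679 in TSR and 414, 422 and 401 in control. TSR replicate 1 was the highest array and the groups were far apart (0.79 ± 0.09, adjusted p = 2.1e-04, 1.74-fold). Skeletal muscle markers, whose cells also express this receptor, had a summed signal of 2059 to 2139 in TSR and 603 to 662 in control, most of it from Acta1 (1871 ± 38.4 in TSR and 399 ± 10.6 in control). Of the 9 muscle markers 2 passed the filter and 1 was called higher. In every TSR array 1 of the 9 was above all control arrays and 2 were below them. The part of muscle RNA in the Esrra and Rxrg values was not tested.

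Ppara, which encodes the fatty acid receptor of fat oxidation, went the other way from its RXR partners. It had 84.6, 83.1 and 92.9 in TSR and 111, 140 and 102 in control. The groups did not overlap (-0.43 ± 0.15, adjusted p = 0.042), but the call was lost in the methods' t-test (adjusted p = 0.12 on linear signals) and without any 1 array other than control replicate 3 (up to 0.14). Ppard was near the lowest signal of the array in both groups, at 1.81, 1.46 and 1.72 in TSR and 3.94, 1.34 and 2.93 in control, which gives no fold.

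The orphan receptors did not share a direction. Nr2f1 (COUP-TFI), a receptor that mostly represses, was the member with the largest fall. It had 278, 254 and 307 in TSR and 392, 383 and 419 in control. The groups were apart by more than the spread of either (-0.51 ± 0.08, adjusted p = 0.0013). Fibroblast and progenitor markers moved the same way, with 5 of 8 lower and 1 higher and a summed signal of 20942 to 22940 in TSR and 31015 to 34325 in control, and their part in the Nr2f1 value was not tested. The close relative Nr2f2 (COUP-TFII) passed in none of 3 probe sets, with log2 fold changes of -0.04 to 0.10, and the brightest, 1416159_at, had 1094, 1136 and 1050 in TSR and 1083, 1248 and 1041 in control. Nr2f6 passed in neither of its probe sets (0.29 ± 0.12 and 0.32 ± 0.23, adjusted p = 0.084 and 0.28). Its second probe set had 1 control array apart from the others, replicate 3 at 230 beside 118 and 124, against 187, 176 and 198 in TSR, and without that array the adjusted p was 0.0033.

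Nr2c1 and Nr2c2, the testicular orphan receptors TR2 and TR4, bind direct repeats also used by RXR dimers. Nr2c1 probe set 1449157_at had 68.4, 66.4 and 79.2 in TSR and 42.6, 28.1 and 38.0 in control (log2 fold change 0.99 ± 0.21, adjusted p = 0.0044). All 3 control arrays were below the filter of 43.8, so this probe set was tested only because of its TSR signals. The brighter Nr2c1 probe set 1418605_at, however, had 161, 125 and 135 in TSR and 163, 154 and 101 in control and did not differ beyond its spread (0.03 ± 0.19, adjusted p = 0.90). The 2 probe sets of Nr2c1 thus disagree and no direction is given for the gene.

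Nr2c2 probe set 1451569_at had 224, 212 and 168 in TSR and 238, 260 and 305 in control. It was lower in TSR (-0.42 ± 0.13, adjusted p = 0.031), with the call lost in the methods' t-test (adjusted p = 0.12 on linear signals) and without TSR replicate 3, control replicate 2 or control replicate 3 (up to 0.10). Nr5a2 (LRH-1), a receptor of bile acid and steroid synthesis genes, had 89.2, 120 and 110 in TSR and 80.7, 59.6 and 75.2 in control by probe set 1456521_at. That rise (0.57 ± 0.17, adjusted p = 0.024) was lost in the methods' t-test (0.082), after quantile normalisation and without TSR replicate 2, TSR replicate 3 or control replicate 2 (up to 0.088). The other 3 probe sets of each of these genes were below the filter and overlapped between groups.

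**Figure D1:**
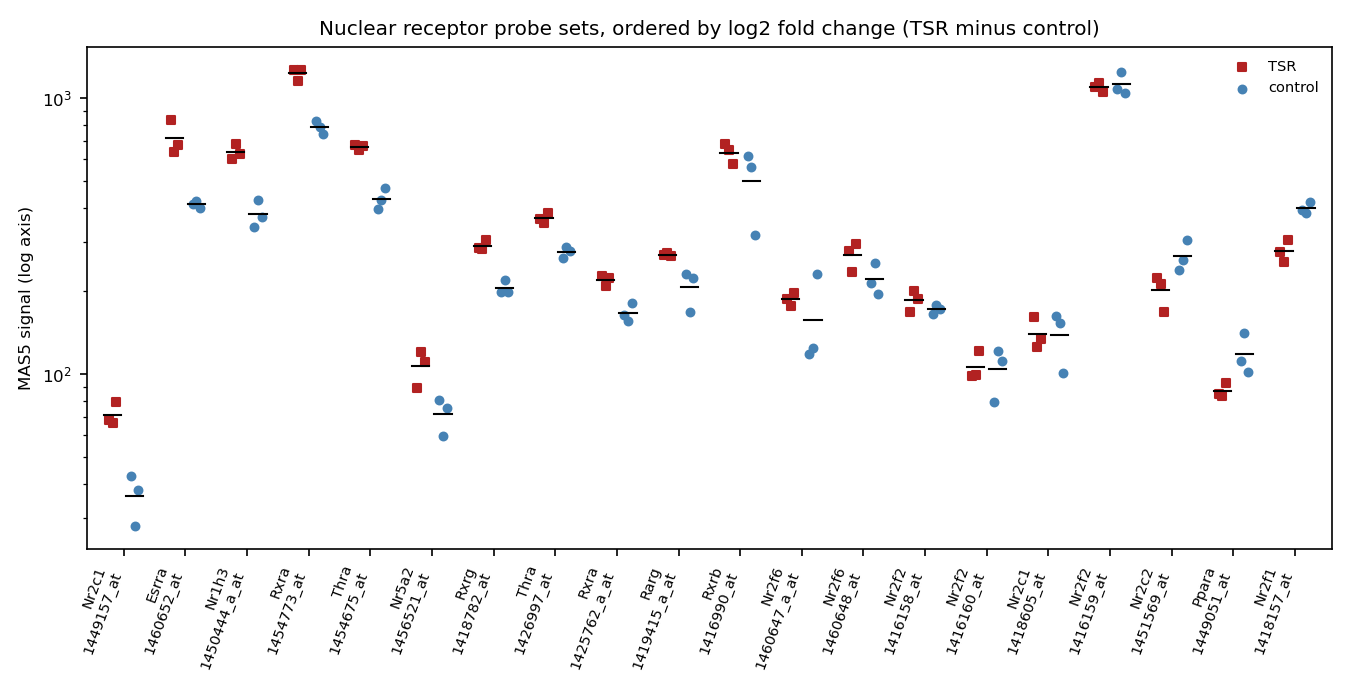
MAS5 signals (log axis) of the 20 nuclear receptor probe sets above the filter, with TSR arrays as red squares, control arrays as blue circles and bars at the group means (n = 3 each), ordered by log2 fold change. Groups lie clearly apart for Esrra, Nr1h3, Rxra and Thra on the left and for Nr2f1 on the far right, while the 7 probe sets that did not pass overlap.

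Another 13 receptor genes had only probe sets below the filter, where a single value can rest on background. They were compared array by array with a two-sided exact permutation test, whose smallest p with 3 arrays per group is 0.1, and in limma without the filter. Rarb, the retinoic acid receptor gene that retinoic acid itself induces, had 48.0, 54.4 and 51.5 in TSR and 25.1, 35.1 and 30.4 in control. These groups were apart (exact p = 0.1), and without the filter the log2 fold change was 0.78 (adjusted p = 0.048). Vdr, the vitamin D receptor, had 24.5, 48.9 and 38.4 in TSR by probe set 1418176_at, and 11.3, 17.0 and 5.09 in control, where every array was below its 25th percentile. Set against those percentiles, the mean of Vdr was at least 1.61-fold higher in TSR (limma adjusted p = 0.035 without the filter). TSR replicate 1, at 24.5, was only just above its own 25th percentile of 23.9. A second Vdr probe set, 1418175_at, had 10.3, 1.83 and 24.6 in TSR and 16.5, 22.2 and 26.6 in control, so that this rise was not seen by both.

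The receptors best known from liver were dim in both groups, and the hepatocyte markers given above moved with TSR. Hnf4a, a receptor that holds the hepatocyte programme, had 4 probe sets. Of these, 1427001_s_at had 52.5, 60.8 and 75.4 in TSR and 29.3, 7.40 and 10.5 in control, with 2 of the 3 control arrays below the 25th percentile, and no fold is given (adjusted p = 0.015 without the filter). Probe set 1427000_at had 16.3, 21.6 and 19.8 in TSR and the lowest signal of the array, 1, in each control, but all 6 values were below the 25th percentile and no fold is given. The other 2 Hnf4a probe sets overlapped between groups. The suffix s marks a probe set that can detect more than 1 transcript.

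Nr0b2 (SHP), a bile acid induced receptor without a DNA-binding domain, had 32.6, 46.5 and 8.15 in TSR and 6.84, 5.54 and 8.29 in control. TSR replicate 3 fell within the control range (exact p = 0.2, adjusted p = 0.094 without the filter). Signals of the bile acid receptor Nr1h4 (FXR) were 31.3, 19.1 and 25 in TSR and 18.0, 18.7 and 27.5 in control, and overlapped. The xenobiotic receptors Nr1i2 (PXR) and Nr1i3 (CAR) also overlapped, with Nr1i3 at 4.52, 3.25 and 3.52 in TSR and 3.41, 3.45 and 3.84 in control. The part of RNA from hepatocytes in the Hnf4a and Nr0b2 values was not tested.

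Sex steroid receptors could hardly be measured. Esr1 (oestrogen receptor α) had 4.37, 4.96 and 21.5 in TSR and 8.65, 16.1 and 2.15 in control, and Pgr (progesterone receptor) had 16.8, 4.59 and 5.51 in TSR and 18.5, 2.97 and 2.02 in control. Rara, a retinoic acid receptor known from most tissues, had 3.17, 15.3 and 8.49 in TSR and 11.2, 2.43 and 13.9 in control. Nr6a1 (germ cell nuclear factor) had 2 probe sets, both at 29.1 or less on every array. For none of these did the groups separate, and a difference was not detectable at signals this low.

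**Figure D2:**
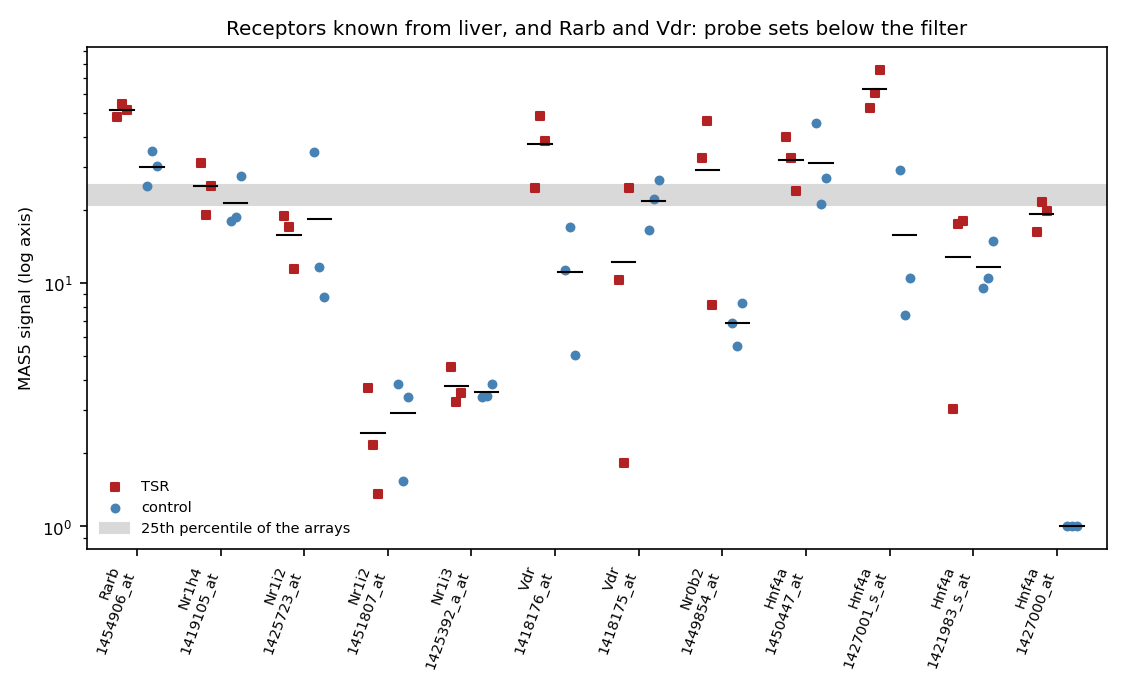
MAS5 signals (log axis) of receptor probe sets below the filter, with TSR arrays as red squares left of control arrays as blue circles, bars at the group means (n = 3 each), and the range of the arrays' 25th percentiles shaded. Rarb lies above the shaded band in TSR, whereas Nr1i2 and Nr1i3 lie mostly below it in both groups.

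Among the coregulators, the 2 brightest genes both fell by their brightest probe sets. Nrip1 (RIP140) is a corepressor of nuclear receptors that in adipocytes holds down oxidative genes, and it was the 1 corepressor of the list with a probe set. Probe set 1449089_at had 3476, 3528 and 3380 in TSR and 4369, 4266 and 4439 in control. The TSR arrays were all below the control arrays (-0.33 ± 0.04, adjusted p = 2.6e-04). Probe set 1418469_at had 1103, 1153 and 1093 in TSR and 1334, 1346 and 1358 in control (-0.27 ± 0.04, adjusted p = 0.0011). Both probe sets of Nrip1 thus fell to about 0.8 of control, with ratios of means of 0.794 and 0.829.

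Ncoa4 (ARA70), a coactivator described for the androgen receptor and PPARγ that also serves as the carrier of ferritin to autophagy, had probe sets that moved in opposite directions. The brighter, 1420808_at, had 3257, 3285 and 3501 in TSR and 4126, 4102 and 4169 in control (-0.30 ± 0.04, adjusted p = 6.1e-04). The dimmer, 1450006_at, had 408, 409 and 419 in TSR and 301, 296 and 285 in control (0.49 ± 0.06, adjusted p = 3.1e-04). Each contrast had no overlap and was called in every alternative, so no direction is given for the gene as a whole. Among 3236 genes with at least 2 tested probe sets, 202 (6.24%) were called in both directions. In 69.2% of the 3236 the dimmest probe set had the higher log2 fold change than the brightest, as in Ncoa4. The median of that difference was 0.16.

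Ncoa4 has 3 RefSeq starts, and because its probe sets disagree the start with an AGGTCA hexamer is shown, at chr14:32165689-32165788 on the plus strand of GRCm38.p6.
Ncoa4: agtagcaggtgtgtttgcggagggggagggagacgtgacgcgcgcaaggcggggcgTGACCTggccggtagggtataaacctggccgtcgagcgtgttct
The capitals mark the hexamer on the other strand, 44 bases before the start. The positions of the probes on the transcript were not used here.

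The p160 coactivators, which bring histone acetyltransferases to ligand-bound receptors, gave small differences. Ncoa1 (SRC-1) probe set 1434515_at had 968, 977 and 951 in TSR and 1097, 1136 and 1100 in control. The fall was small but well beyond the spread (-0.20 ± 0.04, adjusted p = 0.0049). Its other probe set had 699, 778 and 770 in TSR and 843, 841 and 771 in control and did not pass (-0.13 ± 0.06, adjusted p = 0.12), although it did after cyclic loess normalisation (adjusted p = 0.049). Ncoa3 (SRC-3) had 147, 158 and 134 in TSR and 168, 152 and 161 in control (-0.13 ± 0.11, adjusted p = 0.34), with a 95% interval from -0.37 to 0.11. Ncoa2 (SRC-2) was below the 25th percentile in every sample and gives no fold.

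Med1, the Mediator subunit that binds nuclear receptors, had 6 probe sets, of which 3 were tested and did not share a direction. Probe set 1421907_at had 622, 614 and 690 in TSR and 779, 719 and 821 in control and was lower (-0.27 ± 0.07, adjusted p = 0.012), though not in the methods' t-test (adjusted p = 0.066 on linear signals). Probe set 1448708_at, of nearly the same brightness, had 659, 705 and 707 in TSR and 599, 675 and 617 in control (0.13 ± 0.06, adjusted p = 0.11). The dimmest of the 3 had a difference of 0.38 ± 0.28.

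**Figure D3:**
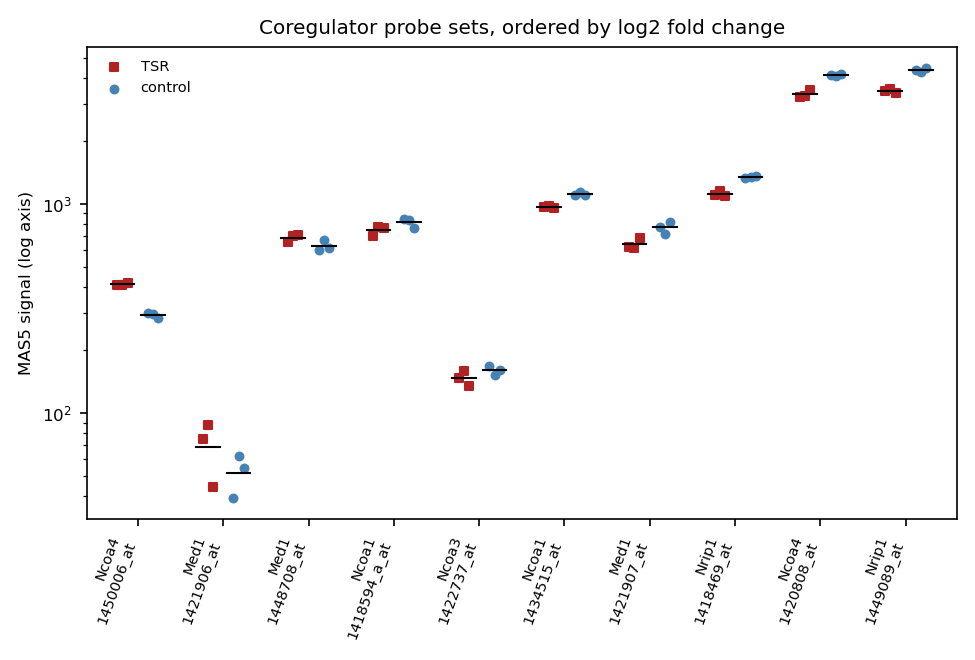
MAS5 signals (log axis) of the 10 coregulator probe sets above the filter, with TSR arrays as red squares left of control arrays as blue circles and bars at the group means (n = 3 each), ordered by log2 fold change. The probe sets of Ncoa4 stand near opposite ends of the order, near 400 and near 4000, and those of Nrip1 both lie lower in TSR.

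Receptors and coregulators differ in brightness, and on these arrays the change was lower among the brightest probe sets. Receptor probe sets had a median signal of 239 and coregulator probe sets of 742. Over all tested probe sets the median log2 fold change was 0.07 in the dimmest of 10 equal bins of signal. It was 0.11 in bin 4 and -0.001 in bin 9, and the largest step was to the brightest bin. In that bin (2485 and more) it was -0.16, and 51.2% were lower in TSR and 13.8% higher. The brightest probe sets of Nrip1 and Ncoa4 lie in that last bin, at the 21.5th and 25.6th percentile of its log2 fold changes. Set against the median of its own bin, the change was above it for 13 of 20 receptor and 3 of 10 coregulator probe sets. By construction, as many of all tested probe sets lie above their bin's median as below it. The median of these bin medians was 0.08 for receptor and 0.04 for coregulator probe sets. The 13 include Nr2c1 probe set 1449157_at, which was tested only because of its TSR signals.

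Cyclic loess normalisation, which removes such a trend and was chosen after the data were seen, left 9 receptor probe sets higher and 3 lower (median 0.31), and 1 coregulator probe set higher and 6 lower (median -0.21). Nrip1 then fell by 0.23 and 0.28, and the brighter Ncoa4 probe set by 0.21, all still called. Rxra, at 0.65, was at the 95.9th percentile of its bin, Nr1h3 at the 96.8th, Esrra at the 97.3rd and Nr2f1 at the 6.12th. In single arrays, the median receptor probe set lay 0.37, 0.34 and 0.41 above its control mean in TSR, and -0.04, 0.04 and 0.01 from it in control (log2). For coregulators the values were -0.21, -0.13 and -0.21 in TSR and between 0.0008 and 0.012 in control. Control values are small by construction, because each probe set was set against its own control mean. The TSR values thus restate the fold changes by array. Nr2c1 probe set 1449157_at was again among the 9 receptor probe sets higher after cyclic loess normalisation, and it is part of the receptor medians.

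**Figure D4:**
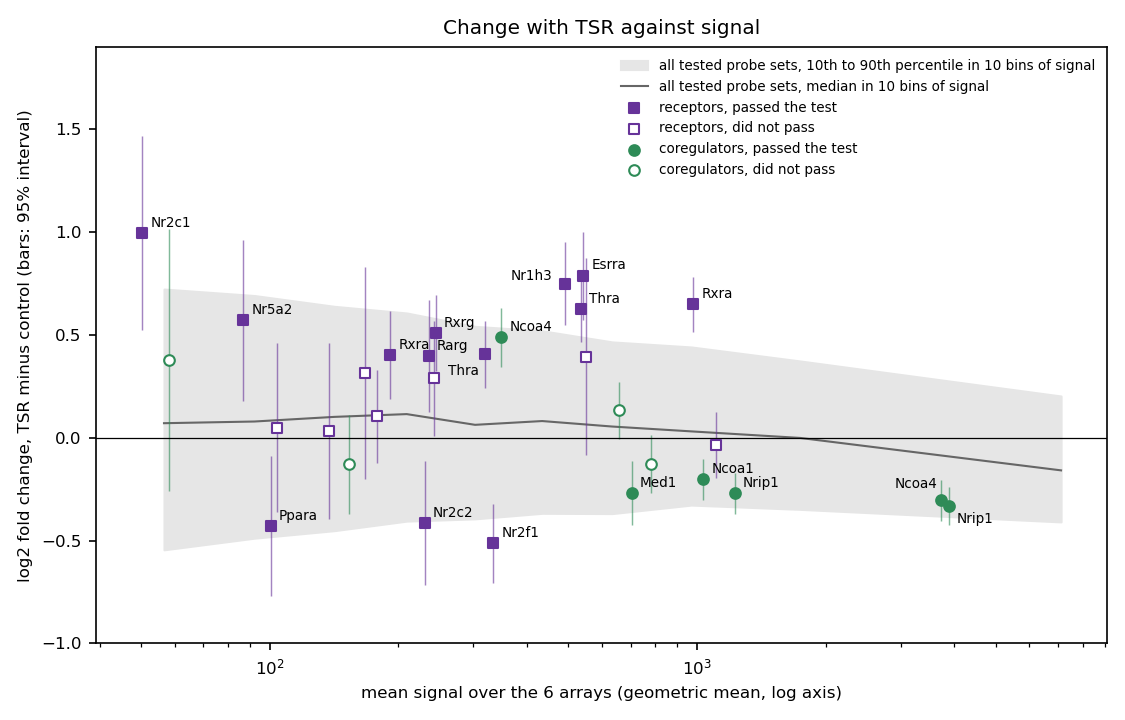
Log2 fold change (TSR minus control, bars 95% interval) against mean signal (log axis) for receptor probe sets (purple squares) and coregulator probe sets (green circles), filled where they passed the test, over the median (line) and the 10th to 90th percentile (grey) of all tested probe sets in 10 bins of signal. Esrra, Nr1h3 and the brighter probe sets of Thra and Rxra stand above the grey band in the middle of the range, the dimmer ones of Thra and Rxra lie within it, and the brightest coregulator probe sets, of Nrip1 and Ncoa4, lie within it.

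The rest of the receptor family was measured beside the members. Of 6 tested further receptors, 1 was higher and 3 were lower, with a median of -0.17. Unlike the receptor members, these 6 did not lean upwards. Pparg, the master receptor of adipocytes and the brightest of these, had 3483 ± 99.8 in TSR and 2923 ± 116 in control (SD, n = 3 each) and was higher by 0.25 ± 0.05 (adjusted p = 0.0022). Nr1d2 (REV-ERBβ), a haem receptor of the circadian clock, had 369 ± 38.5 in TSR and 1185 ± 109 in control, and fell by 1.68 on the log2 scale. Nr4a1, an early-response orphan receptor (log2 fold change -0.97), and the clock receptor Rora (-0.32, limma adjusted p = 0.0044) also fell. The paper, with its own test and expression calls, reports Rora as not significantly changed by TSR. The glucocorticoid receptor Nr3c1 had 2252 ± 105 in TSR and 2298 ± 116 in control (-0.03, adjusted p = 0.69).

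Of 19 further coactivators 7 were higher, 3 lower and 9 did not pass, with a median of 0.17. Ppargc1a (PGC-1α), the partner of PPARs and oestrogen-related receptors on mitochondrial genes, had 344 ± 5.83 in TSR and 168 ± 13.0 in control (1.04, adjusted p = 2.4e-05), and its relative Pprc1 rose by 0.66. The third of these relatives, Ppargc1b, had 860 ± 20.8 in TSR and 746 ± 71.3 in control (0.21, adjusted p = 0.038) and did not pass after cyclic loess normalisation (adjusted p = 0.096). The Mediator subunit Med24 was at 0.49 (adjusted p = 0.032) and did not pass after cyclic loess normalisation either (0.056). The brightest of the list, the RNA helicase Ddx5, had 5925 ± 116 in TSR and 7055 ± 241 in control and was lower (-0.25, adjusted p = 0.0019). Of 18 further corepressors 6 were higher, 4 lower and 8 did not pass (median 0.03). Neither further list thus leaned downwards as the coregulator members did. The corepressors included a rise of Hr (hairless, a thyroid hormone induced corepressor) by 1.17 and of the histone deacetylase Hdac5 by 0.55, and a fall of Sin3a (-0.46). The brightest, Ctbp1, had 2551 ± 89.0 in TSR and 2240 ± 75.0 in control (0.19, adjusted p = 0.0098).

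Enzymes and carriers of receptor ligands went both ways, with 4 of 17 tested genes higher and 6 lower, a split that became 7 higher and 3 lower after quantile or cyclic loess normalisation. Dio2, the deiodinase that makes active thyroid hormone in the cell, had 142 ± 15.7 in TSR and 27.2 ± 2.25 in control (2.38 ± 0.16, adjusted p = 8.5e-06). Its control arrays were all below the filter, and without it 3 of 16 genes were higher and 6 lower. Cyp7b1, an oxysterol hydroxylase, had 113 ± 13.4 in TSR and 50.5 ± 7.95 in control (1.16). Of the retinoic acid synthases, Aldh1a3 fell to 127 ± 38.1 in TSR, against 265 ± 38.4 in control (-1.09, adjusted p = 0.0020), and Aldh1a2 also fell (-1.06), whereas Aldh1a1 had 5512 ± 218 in TSR and 5455 ± 184 in control and did not pass, although it was higher after cyclic loess normalisation (0.15, adjusted p = 0.0094). Fabp4, the fatty acid carrier of adipocytes, was the brightest (-0.43, adjusted p = 0.0029), and did not pass after cyclic loess normalisation (-0.15, adjusted p = 0.052). The paper lists another probe set of Fabp4 as lower in TSR. Dio2 and Ppargc1a also stand on the list of brown adipocyte markers, whose summed signal was 1367 to 1420 in TSR and 842 to 861 in control, with Ucp1 near the lowest signal in both groups (2.09 ± 0.763 in TSR and 1.95 ± 0.820 in control).

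Target genes were counted by receptor, each by its brightest probe set. Of 19 tested PPAR targets 6 were higher and 8 lower, against 8 and 7 after quantile normalisation. The fat oxidation regulator Pdk4 had 453 ± 29.6 in TSR and 1272 ± 31.8 in control (-1.49, adjusted p = 4.6e-07), while the mitochondrial carrier Ucp3 had 656 ± 22.2 in TSR and 281 ± 31.3 in control (1.23) and the acyl-CoA thioesterase Acot2 rose by 1.20. The brightest, the fatty acid transporter Cd36, was at -0.25 (adjusted p = 0.014), and at -0.03 after cyclic loess normalisation, where it did not pass (0.64). Thus the genes of this list changed in both directions.

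LXR targets also went both ways, 5 of 15 higher and 7 lower, against 5 and 3 after quantile, 3 and 7 after centring and 5 and 4 after cyclic loess normalisation. Nr1h3 itself was among the 5. Mlxipl (ChREBP), a glucose-responsive factor of lipid synthesis, had 3560 ± 199 in TSR and 2025 ± 39.0 in control (0.81, adjusted p = 4.7e-06). Apoc1 had 3239 ± 98.0 in TSR and 5758 ± 400.2 in control (-0.83), and Mylip, the ligase that degrades the LDL receptor, was lower by a similar amount (-0.82). The lipase Lpl, the brightest gene of the list, was at -0.39 (adjusted p = 0.0044) and at -0.15 after cyclic loess normalisation (0.063). Macrophages, whose markers fell as given above, also express several of these genes, and their part in the LXR target values was not tested.

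Thyroid hormone targets were split too, 2 of 8 higher and 3 lower, against 3 and 2 after quantile normalisation. Hr and the malic enzyme Me1 rose (1.17 and 0.82), the calcineurin regulator Rcan2 fell (-0.69), and Thrsp, a bright lipogenic gene, was at -0.24 (adjusted p = 0.042) and at -0.01 after cyclic loess normalisation (0.87). Of 7 retinoic acid receptor targets 1 was higher (Rai1, 0.36) and 1 lower (Rarres2, chemerin, -0.19) while the brightest, Tgm2, did not pass (-0.07), against 0 and 2 after quantile and 1 and 3 after median centring. Of 9 oestrogen-related receptor targets 2 were higher, Esrra itself and Idh3a (0.30), and 2 lower, Ndufb5 (-0.34) and the brightest tested of the list, Cox5b (-0.29), against 4 and 1 after quantile and 5 and 1 after cyclic loess normalisation. Mineralocorticoid and glucocorticoid targets gave 6 of 12 higher and 5 lower, against 3 and 5 after median centring, with the kinase Sgk1 at 784 ± 19.0 in TSR and 1807 ± 143 in control (-1.20), Per1 at -0.59, Klf15 at 0.58 and the brightest, the metallothionein Mt2, at -0.19 (and at -0.07 after cyclic loess normalisation, where it did not pass, adjusted p = 0.17). Oestrogen and progesterone targets were mostly lower, with 6 of 10 lower and 1 higher, against 5 lower and 2 higher after quantile and 6 lower and 2 higher after cyclic loess normalisation. Igf1 (-0.93), Myc (-0.78) and Cxcl12 (-0.63) had the largest falls among them, and Nrip1 was also among the 6. The brightest, Igfbp4, did not pass (0.03, adjusted p = 0.67), although it was higher after cyclic loess normalisation (0.21, adjusted p = 0.0028). The paper lists other probe sets of Igfbp4 as higher in TSR, so its probe sets disagree and no direction is given for Igfbp4.

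Targets of the receptors known from liver were mostly higher. Of 6 tested HNF4A targets 4 were higher and 1 lower, and of 8 tested PXR and CAR targets 7 were higher and 1 lower. Apob and Mttp among the first and Cyp3a11, Cyp2c29 and Cyp2b10 among the second reached the filter through TSR alone. Without them, 3 of 4 HNF4A targets and 4 of 5 PXR and CAR targets were higher, and 1 of each list was lower. Transthyretin (Ttr) had 2208 ± 70.2 in TSR and 56.6 ± 5.94 in control (5.29), and Apoa2 rose by 3.92. Apob had 173, 156 and 146 in TSR and 24.9, 17.4 and 16.1 in control. The drug-metabolising enzyme Cyp3a11 had 226, 226 and 263 in TSR and 19.0, 19.8 and 29.0 in control. For both genes 2 of the 3 control arrays were below their 25th percentile, so no fold is given. Cyp2c29 and Cyp2b10, with control signals above that percentile but low, were at 3.25 and 0.83, and the brightest, Alas1, rose by 0.20. Pck1, an enzyme of glyceroneogenesis that WAT itself expresses, was the brightest HNF4A target and had 1975 ± 181 in TSR and 4149 ± 299 in control (-1.07, adjusted p = 1.0e-05). Several of these genes, among them Ttr, Apoa2, Apob and Cyp3a11, stand on the hepatocyte list too, and only 2 of the 8 PXR and CAR targets were higher in the methods' t-test and 3 without control replicate 1. Of 2 tested FXR targets Apoc2 was higher (0.36, adjusted p = 0.034), and 0 were after quantile, centring or cyclic loess normalisation. The other measured FXR targets were below the filter. Among these, Abcb11, Cyp7a1, Cyp8b1, Slc10a1, Baat and Slc27a5 lay above every control array in every TSR array. Nr0b2, Fgf15, Slc51a and Slco1a1 overlapped. Control signals were low and no fold is given. The paper lists Abcb11, Cyp8b1, Slc10a1 and Slc27a5 as higher in TSR.

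**Figure D5:**
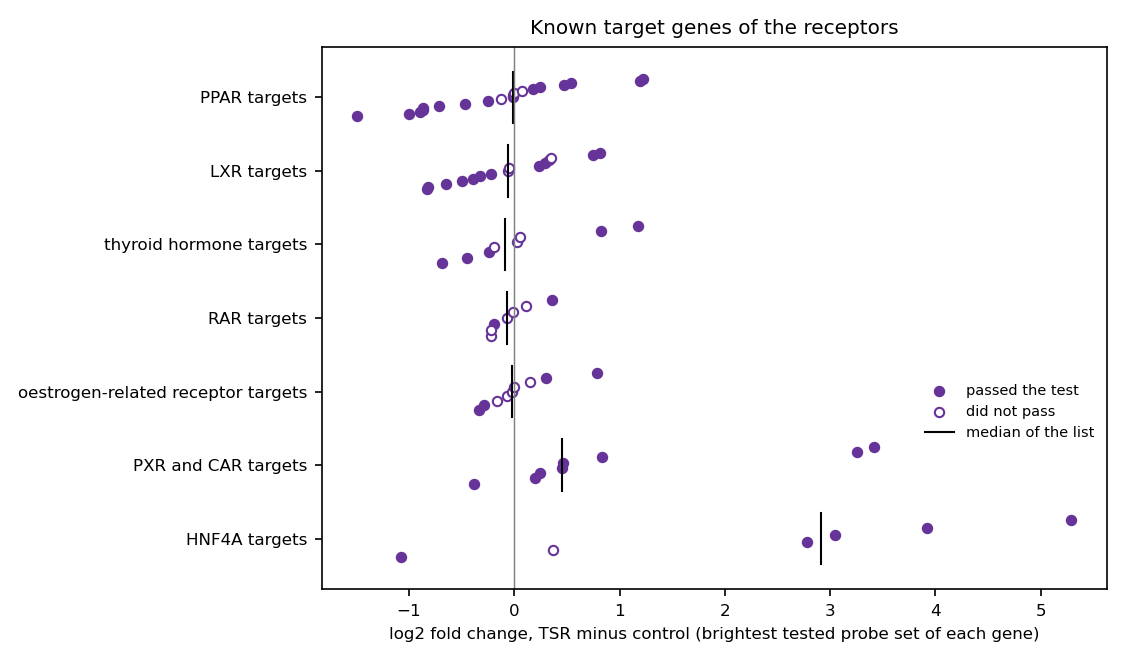
Log2 fold change (TSR minus control) of each tested target gene by its brightest probe set, by receptor list, filled where the gene passed the test and with a bar at the list's median. Targets of PPAR, LXR, thyroid hormone, retinoic acid and oestrogen-related receptors lie on both sides of 0 with medians close to it, and 3 of the 4 HNF4A targets above the filter in both groups lie at 2.78 or above (Apob and Cyp3a11 are drawn at fitted values although 2 of their 3 control arrays were below the 25th percentile).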

How the data were processed

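RNA of epididymal WAT from 3 TSR and 3 control samples was measured on Affymetrix arrays. The authors computed MAS5 signal intensities with Expression Console (version not given in the sources used here), and the deposited intensities are linear values that the authors had scaled to a common target. They were used without further scaling. Groups came from the sample titles.

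Signals were taken to log2. Left out were 64 control probe sets and, in place of the authors' expression calls, the dimmest 35% of the rest (ranked on the mean over the 6 arrays). The remaining 14707 probe sets were compared with limma 3.58.1 under R 4.3.3 (two-sided moderated test, variance trend on signal, Benjamini-Hochberg, threshold 0.05). Log2 fold changes are TSR minus control and are given ± SE. Ratios are of mean signals. Where every array of a group lay below its 25th percentile, a fold was given only as a bound against those percentiles. Calls were also counted without probe sets whose mean log2 signal reached the filter in 1 group only, a count added after the data were seen. With 3 arrays per group, their number limits the precision (median within-group SD 0.10, log2). Exact permutation tests of 3 against 3 arrays cannot go below 0.1.

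Probe sets were assigned to genes through the platform annotation, which gave 1 symbol for 20393 of the 22690 probe sets, several for 691 and none for 1606. Promoter sequences were those of RefSeq for GRCm38.p6. Named were all members, up to 3 genes per further list with the largest change among those that passed, the brightest gene of each list, and marker genes. Nr3c1, Ppargc1b, Aldh1a1, Aldh1a2, Mttp, Acta1 and Ucp1 were named after their values were seen. The members and gene lists were chosen with earlier results of these data known. Alternatives tried were Student's test of the paper's methods (called the methods' t-test, linear and log2), a fit without the trend, quantile normalisation, median centring, filters of 0% or 50%, a floor at the 25th percentile, a replicate block, leaving out single arrays, and averaging the probe sets of a gene. Cyclic loess normalisation was added after the data were seen. The computation was tested on simulated data.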

Additional observations from a re-analysis of the deposited data

How the results depend on the processing

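Of the 19 called receptor and coregulator probe sets, 14 were called in every alternative that tested them, and 17 under quantile, median centring and cyclic loess normalisation alike. No called value changed sign. The exceptions were Rarg, Nr5a2, Ppara, Nr2c2 and Med1, which lost the call in the methods' t-test, so that 5 member probe sets were lower there on linear and 5 on log2 signals, against 8. With probe sets averaged by gene, 2 coregulator genes were lower, against 4. Leaving out 1 array at a time gave 9 to 12 member probe sets higher and 6 to 7 lower, and 3075 to 3551 of all tested probe sets higher and 2525 to 2840 lower. Over all tested probe sets, median centring gave 2673 higher and 4236 lower, against 3768 and 3082. TSR and control samples share replicate numbers, but samples of the same number did not deviate together in every pair (correlations 0.02, 0.19 and 0.17), so the numbers were not taken as pairs. With the replicate block, 12 member probe sets were higher and 7 lower (Rxrb gained a call, adjusted p = 0.035, and Ppara lost its call, adjusted p = 0.054), over all probe sets 4043 and 3391, and 4 of 6 samples correlated best with their own number. Low signals limit the probe sets below the filter, many of which lay around or under the 25th percentile of the array (20.9 to 25.3). The causes of these shifts were not tested.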
